A study of Mus musculus with 8 samples.

Results

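Mouse macrophages given lipopolysaccharide (LPS) together with interleukin-10 (IL-10) for the whole stimulation were compared with macrophages given LPS alone, once for mature mRNA and once for pre-mRNA, over all genes of the table. The comparison rests on 4 of the 8 libraries, 2 with IL-10 throughout and 2 with LPS alone. It covers all 11415 genes of the table by mRNA and the 11131 of them that passed a minimum mean of 1 normalized read by pre-mRNA. LPS, a component of the outer membrane of Gram-negative bacteria, was given at 1 ng/mL for 195 min. In the group called IL-10 throughout (c10 in the labels) IL-10 at 1 ng/mL was present for the same 195 min. The remaining groups were untreated cells and cells that received IL-10 for only the last 30 min of the LPS stimulation (late IL-10, a10 in the labels), at a dose that is not restated for that group. All groups shared the genotype IL10-/-RAG2-/- on the strain 129S6/SvEvTac, so the macrophages lacked functional IL-10 of their own and came from mice without mature B and T cells. Bone marrow precursors had been cultured for 5 days in M-CSF conditioned medium, and per the study design 2 independent pools of macrophages were stimulated. The sources used here do not give the ages and sexes of the mice or the number of mice in a pool.

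LPS binds Toll-like receptor 4, whose adaptors MyD88 and TRIF activate NF-kB, MAP kinases and interferon regulatory factors. These switch on cytokine and chemokine genes and, through secreted interferon beta and its receptor, the interferon-stimulated genes. IL-10 binds a receptor made of IL-10RA and IL-10RB, activates the kinases JAK1 and TYK2 and, through them, the transcription factor STAT3, and is known in macrophages for restraining the output of the LPS response. Pre-mRNA, taken as transcripts that still hold introns, is short-lived and so mirrors current transcription, whereas the level of mature mRNA also depends on its decay. In the table, 203 of 211 genes with a single annotated exon (96.2%) had no pre-mRNA reads, against 40 of 10827 genes with more exons (0.369%).

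The promoters of genes whose changes are described below are shown first, because each group of genes is known for a different family of binding sites. They are RefSeq sequences of build GRCm38.p6, from 250 bases before to 50 bases after the annotated start, written on the strand of the gene. Capitals mark matches to a motif, searched on both strands. Steap4, a metalloreductase gene (chr5:7960222-7960521, plus strand), Bcl6, a transcriptional repressor gene (chr16:23981234-23981533, minus strand), and Sbno2, a corepressor gene of the STAT3 pathway (chr10:80101138-80101437, minus strand), rose with IL-10 by mRNA, and their capitals mark the STAT-type letters TTCNNNGAA.
Steap4: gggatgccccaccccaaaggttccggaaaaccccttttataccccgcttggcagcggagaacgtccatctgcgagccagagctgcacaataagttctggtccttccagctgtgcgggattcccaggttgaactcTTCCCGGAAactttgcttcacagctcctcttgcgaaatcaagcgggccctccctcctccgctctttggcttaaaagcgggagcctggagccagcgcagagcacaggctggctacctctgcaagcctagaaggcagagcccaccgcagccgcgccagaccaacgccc
Bcl6: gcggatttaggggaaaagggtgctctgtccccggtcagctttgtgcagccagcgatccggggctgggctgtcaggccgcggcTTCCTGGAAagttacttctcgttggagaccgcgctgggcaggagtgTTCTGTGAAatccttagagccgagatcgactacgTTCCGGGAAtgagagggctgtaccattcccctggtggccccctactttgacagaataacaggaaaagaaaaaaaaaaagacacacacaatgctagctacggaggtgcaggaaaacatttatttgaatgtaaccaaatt
Sbno2: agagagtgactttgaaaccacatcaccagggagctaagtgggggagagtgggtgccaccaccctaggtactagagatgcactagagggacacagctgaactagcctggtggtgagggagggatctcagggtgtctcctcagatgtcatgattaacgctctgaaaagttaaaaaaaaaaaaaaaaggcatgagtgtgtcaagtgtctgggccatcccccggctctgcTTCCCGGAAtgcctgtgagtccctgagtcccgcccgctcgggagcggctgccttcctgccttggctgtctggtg
Cxcl1, a neutrophil-attracting chemokine gene (chr5:90890995-90891294, plus strand), and Il6 (chr5:30012864-30013163, plus strand) fell, and their capitals mark the kB-type letters (GGGA, any 2 bases, then TTCC), 2 overlapping matches in Cxcl1.
Cxcl1: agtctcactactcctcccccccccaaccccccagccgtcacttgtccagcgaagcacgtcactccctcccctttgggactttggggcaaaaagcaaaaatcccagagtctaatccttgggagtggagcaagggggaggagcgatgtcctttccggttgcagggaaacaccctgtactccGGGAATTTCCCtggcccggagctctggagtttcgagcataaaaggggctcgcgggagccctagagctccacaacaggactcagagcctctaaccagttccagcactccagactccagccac
Il6: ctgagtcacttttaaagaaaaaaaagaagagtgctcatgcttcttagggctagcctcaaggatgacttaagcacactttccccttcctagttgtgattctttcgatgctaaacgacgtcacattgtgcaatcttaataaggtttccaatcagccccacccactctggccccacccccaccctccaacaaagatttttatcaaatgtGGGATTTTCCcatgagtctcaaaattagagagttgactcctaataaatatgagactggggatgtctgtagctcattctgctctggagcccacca
Ifit1 (chr19:34640639-34640938, plus strand) and Bst2 (chr8:71537423-71537722, minus strand), interferon-stimulated genes of antiviral proteins, fell by pre-mRNA, and their capitals mark the interferon response letters (GAAA, any 2 bases, then GAAA), 2 matches in each.
Ifit1: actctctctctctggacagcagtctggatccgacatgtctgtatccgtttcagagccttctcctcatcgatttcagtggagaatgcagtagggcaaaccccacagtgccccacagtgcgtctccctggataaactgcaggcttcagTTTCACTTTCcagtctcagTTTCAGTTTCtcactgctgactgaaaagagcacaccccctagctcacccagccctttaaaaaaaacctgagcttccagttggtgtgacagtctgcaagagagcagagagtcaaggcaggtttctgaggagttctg
Bst2: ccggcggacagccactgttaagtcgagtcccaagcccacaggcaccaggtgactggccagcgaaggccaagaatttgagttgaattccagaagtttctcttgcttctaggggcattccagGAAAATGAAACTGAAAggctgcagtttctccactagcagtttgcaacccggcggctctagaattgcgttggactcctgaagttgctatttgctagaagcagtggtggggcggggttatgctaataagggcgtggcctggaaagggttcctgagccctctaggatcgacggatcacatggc
Bcl6 had 2 promoter windows in RefSeq and Sbno2 had 3, of which 1 each is shown. A match is a run of letters and not a site of binding, and these genes were picked because they hold one. Among all 32851 RefSeq promoters 8.3% held the STAT-type letters, 1.47% the kB-type and 3.44% the interferon response letters. Among the 11728 promoters of genes in the table the shares were 6.98%, 1.46% and 3.35%. The STAT-type share was 12.3% of 162 promoters of genes that rose by mRNA and 3.94% of 127 promoters of genes that fell, while by pre-mRNA the shares were close, at 7.36% of 299 and 6.94% of 504. It was 21.2% of 33 promoters on the list of IL-10 and STAT3 response genes and 25.6% of 43 on that of interferon-stimulated genes. The kB-type share was 36.4% of 11 chemokine promoters and 23.5% of 17 cytokine promoters, against 1.46% of the 11728 promoters of genes in the table. It was 5.51% of promoters of genes that fell by mRNA and 1.23% of those that rose, and 2.58% and 0.669% by pre-mRNA. The interferon response letters stood in 53.5% of the 43 promoters of interferon-stimulated genes. They stood in 8.93% of promoters of genes that fell by pre-mRNA and 3.34% of those that rose, and by mRNA in 4.72% and 4.94%. These shares are descriptions, and promoters of 1 gene share sequence.

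Read totals over the genes of the table ran from 21412968 to 53172133 per library for mRNA and from 8661271 to 31508394 for pre-mRNA. Values are normalized reads, given for libraries A and B of a group in that order. A is the library of the group with the larger size factor in that measure, so A of the mRNA measure need not be the same culture as A of the pre-mRNA measure. Changes are IL-10 throughout minus LPS on the log2(normalized reads + 1) scale with limma's standard error (SE, n = 2 libraries per group, spread shared over 4 groups), and "rose" and "fell" mean a Benjamini-Hochberg adjusted p under 0.05 over all genes. By mRNA 136 genes rose (1.19% of those tested) and 120 fell (1.05%), and by pre-mRNA 272 rose (2.44%) and 474 fell (4.26%). Counts of called list members below are to be read against these shares. Leaving out 1 library left 27 to 56 mRNA rises and 16 to 29 mRNA falls, each lowest without LPS library B. The pre-mRNA rises came to 30 to 399 and the falls to 32 to 753, lowest without IL-10 library B and highest without LPS library B. With scaling to total reads in place of the deposited size factors, the median change of all genes went from -0.02 to 0.24 by mRNA and from 0.00 to 0.46 by pre-mRNA, and all changes here are relative to that median. The share of rises among the calls then went from 53.1% to 63.3% by mRNA (174 up, 101 down) and from 36.5% to 52.9% by pre-mRNA (392 up, 349 down). Every gene with fewer than 11 reads in an LPS mRNA library is missing from the table, so a gene silent under LPS could not be seen to rise.

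Among the named genes, 15 kept their mRNA call with each of the 4 libraries left out in turn: Il12b, Tnf, Cxcl1 and Mex3a among the falls, and Steap4, Ggta1, Il4ra, Bcl6, Mt1, Saa3, Tnip3, March1, Gpr35, Rab3il1 and Rnd1 among the rises. By pre-mRNA 22 did: Il12b, Il6, Csf2, Ccl22, Cxcl9, Tslp, Tnfsf15, Bst2 and Prr5l fell, and Ggta1, Gpr35, Pfkfb3, Slamf1, Rab3il1, Rnd1, Creg2, Neurl2, Acat3, Gm2a, Pltp, Itgam and Cfp rose. Any other call of a named gene against LPS was lost without at least 1 of the 4 libraries, while its direction stayed. Some were lost with any of the 4 left out, among them Fos, Stat3 and Icam1 by mRNA and Tnf and Cxcl1 by pre-mRNA.

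Among cytokine genes Il12b had the lowest change by mRNA. Il12b, which encodes the p40 subunit of IL-12 and IL-23 and lies on chromosome 11 (44400063 to 44414677, GRCm38.p6), had 28761 and 65667 mRNA reads with LPS and 269.9 and 226.3 with IL-10 throughout. The untreated libraries held 1.32 and 2.48. The groups did not overlap, and Il12b with IL-10 stood at 0.526% of its LPS level, a change of -7.45 ± 0.56 (adjusted p = 0.00436). It remained above untreated cells by 6.45 ± 0.56 (adjusted p = 4.88e-04).

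The partner subunits of p40 fell too. Il12a (p35) had 718.2 and 1782 mRNA reads with LPS and 41.1 and 17.0 with IL-10 (-5.36 ± 0.72, adjusted p = 0.0159), and Il23a (p19) had 445.1 and 389.4 against 10.7 and 9.56 (-5.23 ± 0.49, adjusted p = 0.00571). Il6, a fever and acute-phase cytokine, had 6006 and 17665 with LPS and 358.3 and 110.5 with IL-10. Its change was -5.69 ± 0.91 (adjusted p = 0.0294), without overlap. Its adjusted p lay between 0.0612 and 0.177 with 1 of the 4 libraries left out, lowest without LPS library A. Tnf, a primary NF-kB target, had the smallest spread of these genes, with 216667 and 215025 reads under LPS and 48416 and 45891 with IL-10, which is 21.9% of the LPS level (-2.20 ± 0.19, adjusted p = 0.00571).

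The growth factor genes followed. Csf2 (GM-CSF) had 1536 raw mRNA reads over both LPS libraries and 18 with IL-10, a normalized ratio of 104 (95% counting interval 65.8 to 177). Csf1 (M-CSF) fell as well (-2.92 ± 0.55, adjusted p = 0.0497), and Lif, a relative of IL-6, had 3417 and 1465 reads with LPS and 35.7 and 105.2 with IL-10 (-5.16 ± 0.66, adjusted p = 0.0126). Ifnb1 (interferon beta), a single-exon gene with no pre-mRNA reads, had 92.7 and 273.1 reads with LPS and 15.2 and 17.0 with IL-10 (-3.23 ± 0.61, adjusted p = 0.0495). Of the 24 cytokine genes measured, 11 fell by mRNA, against 1.05% of all genes, the other members being Tnfsf15 and Il27. The list median was -2.20 beside -0.02 for all genes. In 18 of the 24 both IL-10 libraries lay below both LPS libraries, a pattern that 21.3% of all genes showed. The count fell to 5 without LPS library A, 3 without LPS library B, 3 without IL-10 library A and 4 without IL-10 library B. Il1b, the precursor of the inflammasome's main product, did not pass: it had 186913 and 333586 reads with LPS and 129350 and 47218 with IL-10 (-1.68 ± 0.59, adjusted p = 0.243).

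Il12b fell by pre-mRNA as well. The LPS libraries held 14002 and 10184 normalized pre-mRNA reads and the IL-10 libraries 16.2 and 10.8, a 895-fold lower mean (-9.71 ± 0.72, adjusted p = 0.00206). Il6 pre-mRNA had 8808 and 5732 with LPS and 157.1 and 61.5 with IL-10 (-6.16 ± 0.66, adjusted p = 0.0048). Csf2 had 522 raw pre-mRNA reads with LPS and 2 with IL-10, a ratio of 374 (counting interval 103 to 3100). Tslp, an epithelial-type cytokine that acts on dendritic cells, had 126 raw reads with LPS and none with IL-10, and so was at least 60.2-fold lower, taking 3 reads in the group as the limit that a count of 0 allows. Tnf pre-mRNA fell from 6220 and 7677 to 2100 and 3002 (-1.46 ± 0.30, adjusted p = 0.0336). Among all genes tested by pre-mRNA, 4.26% fell. Of 23 cytokine genes tested 11 fell (median -2.96), 5 to 10 of them or others with 1 library left out, lowest without LPS library A and without IL-10 library B. Il18, whose mRNA gave an adjusted p of 0.317, fell by 3.40 by pre-mRNA (SE 0.59, adjusted p = 0.0194), and it overlaps Bco2 and Tex12 in RefSeq. Reads shared with these neighbours could not be told apart here.

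**Figure D1:**
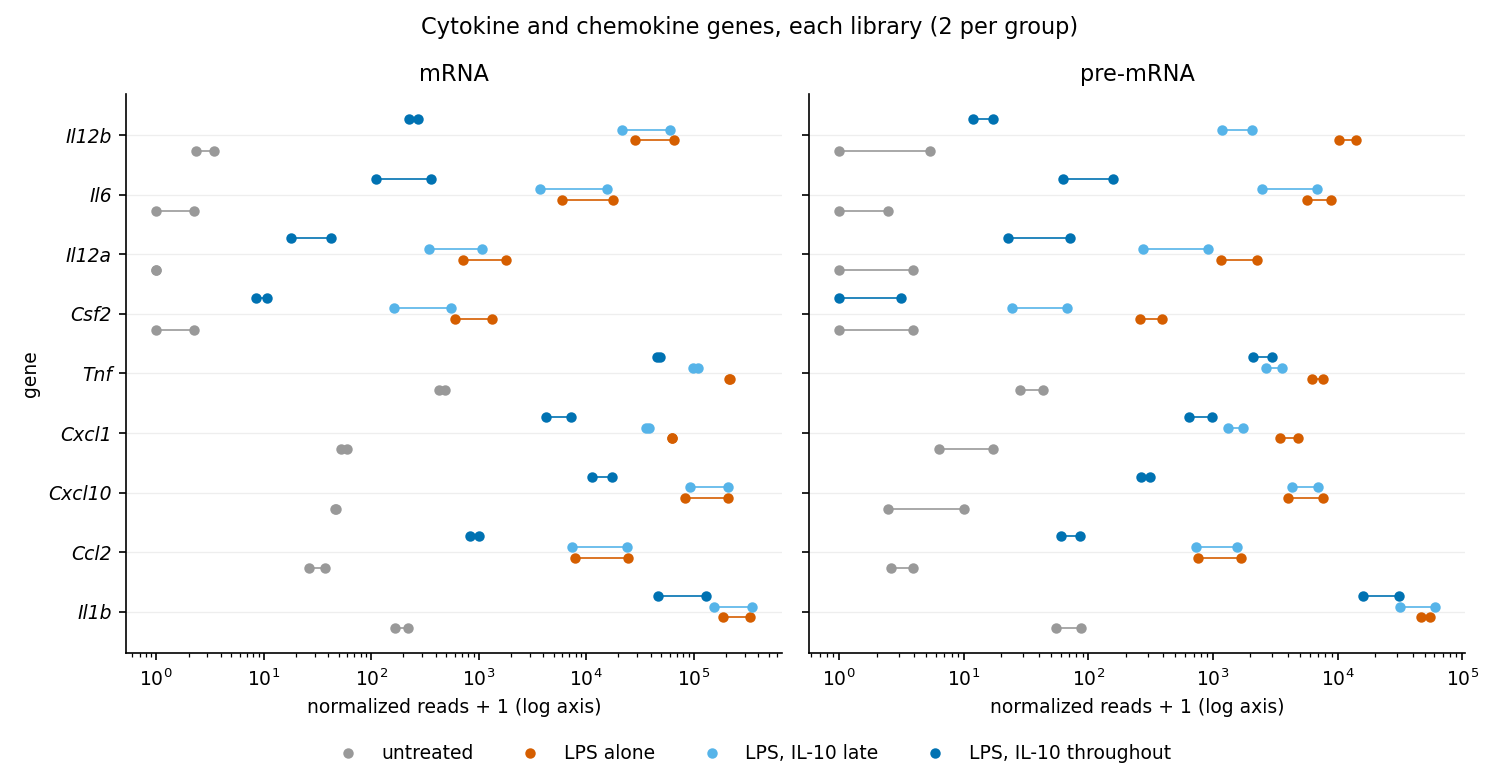
Normalized reads + 1 (log axis) of 9 cytokine and chemokine genes by mRNA (left) and pre-mRNA (right). Each point is 1 library, a line joins the 2 libraries of a group, and colour marks the group. Il12b with IL-10 throughout sits at 269.9 and 226.3 by mRNA and at 16.2 and 10.8 by pre-mRNA, far to the left of its LPS points, while the IL-10 throughout points of Il1b lie much nearer to its LPS points.

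Several chemokine genes, whose products recruit leukocytes, fell in each measure. Cxcl1, a ligand of CXCR2 that draws in neutrophils, had 63380 and 62974 mRNA reads with LPS and 7210 and 4233 with IL-10 (-3.52 ± 0.26, adjusted p = 0.00436), without overlap. Its relatives Cxcl2 (-3.02 ± 0.35, adjusted p = 0.00931) and Cxcl3 (-3.89 ± 0.47, adjusted p = 0.0104) fell by similar amounts. Ccl17, a ligand of CCR4 on T cells, had 486 raw reads with LPS and 11 with IL-10, a ratio of 54.0 (counting interval 29.9 to 109). Cxcl10, an interferon-induced ligand of CXCR3, had 83311 and 207592 reads with LPS and 17499 and 11309 with IL-10 (-3.22 ± 0.53, adjusted p = 0.0323). Of 18 chemokine genes 7 fell by mRNA (Ccl2 and Cx3cl1 were the others), against 1.05% of all genes. In 17 both IL-10 libraries lay below both LPS libraries, against 21.3% of all genes. The median change was -3.21, and the count was 4, 1, 4 and 2 without LPS library A, LPS library B, IL-10 library A and IL-10 library B.

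By pre-mRNA 11 of 17 chemokine genes fell, against 4.26% of all genes tested. All 17 had no overlap, against 25.6% of all genes tested. Cxcl9, an interferon gamma target, had 299 raw pre-mRNA reads with LPS and 1 with IL-10, a ratio of 429 (counting interval 76.4 to 17000). Ccl22, the second CCR4 ligand, had 542 and 8 raw reads (ratio 97.2, counting interval 49.0 to 226). Cxcl10 pre-mRNA had 7632 and 4012 normalized reads with LPS and 312.7 and 264.3 with IL-10 (-4.26 ± 0.63, adjusted p = 0.0126). Ccl3, which did not pass by mRNA (adjusted p = 0.103), fell by 1.68 by pre-mRNA (SE 0.37, adjusted p = 0.0388). The count was 4, 10, 3 and 2 without LPS library A, LPS library B, IL-10 library A and IL-10 library B.

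Interferon-stimulated genes encode antiviral and signalling proteins induced through the interferon receptor. Ifit1, an RNA-binding antiviral gene on chromosome 19 (34640889 to 34650009), had 42529 and 156094 mRNA reads with LPS and 20850 and 5362 with IL-10. Both IL-10 libraries lay below both LPS libraries, but the 2 libraries of each group stood far apart, and the change of -2.95 ± 0.91 did not pass (adjusted p = 0.189). Of 48 genes on the list 1 fell by mRNA, the ubiquitin ligase gene Trim21 (-2.21 ± 0.40, adjusted p = 0.0464), and that call was lost with any of the 4 libraries left out. The list median was -1.78. In 38 of the 48 both IL-10 libraries lay below both LPS libraries, against 21.3% of all genes.

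By pre-mRNA more of these genes passed, though no joint test called the difference between the measures for any of them. Bst2 (tetherin), which holds budding virions at the cell surface, had 1879 and 1698 pre-mRNA reads with LPS and 346.6 and 244.9 with IL-10 (-2.61 ± 0.27, adjusted p = 0.00447). Oasl1 (-2.76 ± 0.36, adjusted p = 0.00767) and the transcription factor gene Irf1 (-2.19 ± 0.30, adjusted p = 0.00935) fell as well, and Ifit1 pre-mRNA went from 17602 and 7822 to 1813 and 480.0 (-3.65 ± 0.71, adjusted p = 0.0279). In RefSeq the Ifit1 span overlaps that of Ifit1bl1, and Ifit3b is a near-identical copy of Ifit3, so their reads are uncertain. All 48 genes had both IL-10 libraries below both LPS libraries, against 25.6% of all genes tested. Of the 48, 28 fell, against 4.26% of all genes tested, and the median was -2.50. The count was 2 without LPS library A, 36 without LPS library B, 19 without IL-10 library A and 1 without IL-10 library B, and 4 when no filter on low values was used.

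For these genes the 2 libraries of a treated group stood further apart than those of untreated cells. The median difference over the list was 0.22 between the untreated libraries by mRNA, 1.26 between the LPS libraries and 1.39 between those of IL-10 throughout (0.26, 0.97 and 1.34 by pre-mRNA). Library B was the higher one with LPS by mRNA and library A the higher one with IL-10. Such a gap was not particular to this list. By mRNA it was 1.08 with LPS and 0.64 with IL-10 throughout for the cytokine genes. For the chemokine genes it was 0.62 and 0.65. Whether the culture pools differ in their interferon response, and the part of that difference in these results, was not tested.

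**Figure D2:**
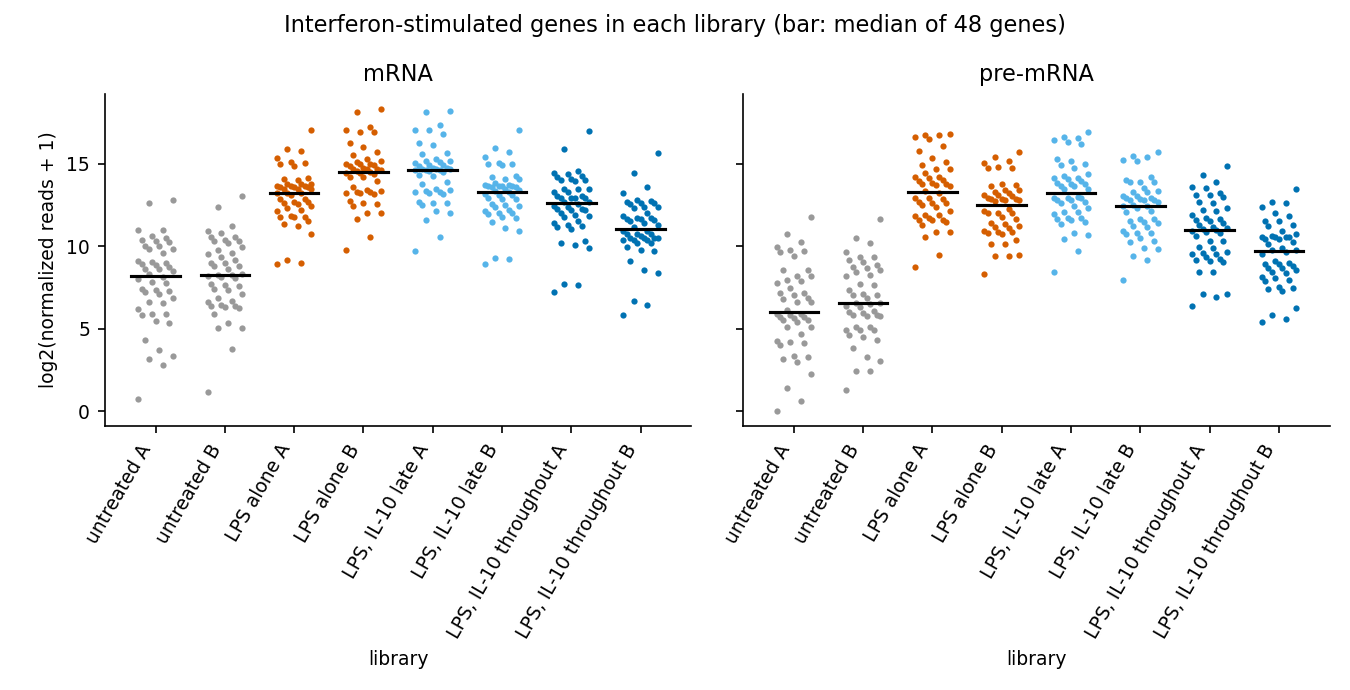
Levels of the 48 interferon-stimulated genes in each library, as log2(normalized reads + 1), for mRNA (left) and pre-mRNA (right). Each point is a gene, colour marks the group and the bar is the median of the library. Between the 2 libraries of a group the median gene differs by 0.22 in untreated cells by mRNA, by 1.26 between the LPS libraries and by 1.39 between those of IL-10 throughout.

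Genes of antigen presentation on MHC class I, which displays peptides of cytosolic proteins, had lower pre-mRNA with IL-10, and part of them passed. All 20 pre-mRNA changes were negative. In 19 of the 20 both IL-10 libraries lay below both LPS libraries by pre-mRNA, against 25.6% of all genes tested. B2m, the light chain of MHC class I, had 14118 and 9731 pre-mRNA reads with LPS and 4541 and 2429 with IL-10 (-1.82 ± 0.38, adjusted p = 0.0356), while its mRNA libraries overlapped (-0.59 ± 0.44, adjusted p = 0.648). The peptide transporter gene Tap1 (-2.24 ± 0.45, adjusted p = 0.0319) and the immunoproteasome gene Psmb9 (-1.76 ± 0.36, adjusted p = 0.0319) fell by pre-mRNA. In all, 6 of 20 genes did (median -1.36), against 4.26% of all genes tested. That count was 0 without LPS library A and without IL-10 library B, and 7 without LPS library B. With the 4 compared libraries alone, and with no filter on low values, 0 members fell by pre-mRNA. By mRNA both limma and limma-voom called 0 of the 20, with a median of -0.60. At an unadjusted p under 0.05, 3 passed, all lower, against 8.37% of all genes. In 14 of the 20 both IL-10 libraries lay below both LPS libraries, against 21.3% of all genes. Tap1 and Psmb9 also stand among interferon targets. The part of the gap between the libraries in their changes was not tested.

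March1, a ubiquitin ligase gene whose product removes MHC class II and CD86 from the surface, went the other way. It had 508.0 and 722.8 mRNA reads with LPS and 6967 and 7066 with IL-10 (3.53 ± 0.31, adjusted p = 0.00571), and 3320 and 2095 against 27491 and 28778 pre-mRNA reads (3.41 ± 0.38, adjusted p = 0.00503). It was the single member called among 9 MHC class II genes in both measures, and the median of that list was -0.43 by mRNA and -0.40 by pre-mRNA, the latter turning to 0.06 with scaling to total reads. Among 14 costimulatory and checkpoint ligands, the SLAM-family receptors Cd244 (3.83 ± 0.57, adjusted p = 0.0232) and Slamf1 (5.26 ± 0.88, adjusted p = 0.0365) rose by mRNA. By pre-mRNA both rose and 4 fell: Tnfsf4 (OX40 ligand), Cd83, Cd40 and Icosl. Icosl, a ligand of the T cell receptor ICOS, had 8451 and 12572 pre-mRNA reads with LPS and 3065 and 2868 with IL-10 (-1.80 ± 0.27, adjusted p = 0.0126). Nlrp3, the sensor of the inflammasome, had 115391 and 115795 mRNA reads with LPS and 54130 and 47583 with IL-10 (-1.19 ± 0.20, adjusted p = 0.0339), and it was the 1 member called of 18 inflammasome genes by mRNA.

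The receptors and adaptors upstream of these genes moved less. Among 26 genes of Toll-like receptors and their adaptors, 3 had falls by mRNA: the endosomal DNA sensor Tlr9, the TRIF-pathway adaptor Ticam2 and the MyD88-pathway kinase Irak2. Tlr9 mRNA had 1904 and 2310 reads with LPS and 475.4 and 543.0 with IL-10 (-2.04 ± 0.28, adjusted p = 0.0161), and its pre-mRNA had 33 raw reads with LPS and none with IL-10, at least 15.8-fold lower. The list median was -0.26 by mRNA and -0.66 by pre-mRNA, and 0.01 and -0.20 with scaling to total reads. By pre-mRNA 3 of the 26 fell as well. The Tlr9 and Irak2 mRNA calls were lost with any of the 4 libraries left out. Of 27 NF-kB genes Icam1, an adhesion molecule and NF-kB target, fell from 202828 and 226794 mRNA reads to 81603 and 66809 (-1.54 ± 0.24, adjusted p = 0.0262). The A20-binding inhibitors Tnip3 (2.83 ± 0.28, adjusted p = 0.00626) and Tnip2 (1.07 ± 0.17, adjusted p = 0.0262) rose. By pre-mRNA Icam1, Nfkbiz, Nfkbib and Nfkbie fell and Bcl3, a nuclear IkB protein gene, rose (1.74 ± 0.29, adjusted p = 0.018). The list medians were -0.39 by mRNA and -0.47 by pre-mRNA, and -0.127 and -0.005 with scaling to total reads.

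Immediate-early genes split by member in the mRNA measure. Of 26 genes 2 rose and 2 fell, against 1.19% and 1.05% of all genes. Egr2 had 11060 and 7114 mRNA reads with LPS and 1591 and 1328 with IL-10 (-2.61 ± 0.32, adjusted p = 0.0114). Fos, an AP-1 subunit, had 603.8 and 330.6 with LPS and 1953 and 3582 with IL-10 (2.56 ± 0.42, adjusted p = 0.0341), and the AP-1 factor Batf rose too (2.45 ± 0.42, adjusted p = 0.0381). Ier5 was the second of the 2 falls among 26 genes. Both mRNA rises were lost with any of the 4 libraries left out, and both falls without LPS library A or either IL-10 library. Of 21 members tested by pre-mRNA, 4 fell (19.0%, against 4.26% of all genes tested), Klf6 and Nr4a3 among them. Batf was the 1 that rose, and that call was lost with any of the 4 libraries left out. The 4 falls were lost without LPS library A or either IL-10 library. None of these pre-mRNA calls was kept with no filter on low values. The pre-mRNA median was -0.725, and -0.27 with scaling to total reads. Dusp1, the phosphatase that inactivates p38 and JNK, rose by mRNA from 3507 and 2230 to 22999 and 17757 reads (2.85 ± 0.39, adjusted p = 0.0163) and by pre-mRNA by 2.58 ± 0.41 (adjusted p = 0.0157), while Dusp4 fell by pre-mRNA by 2.12 (SE 0.40, adjusted p = 0.0251).

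Several genes rose many-fold by mRNA, some of them known targets of IL-10 and STAT3. Steap4, which reduces iron and copper at the membrane (chromosome 5, 7960472 to 7982213), had 15.5 and 51.8 mRNA reads with LPS and 5598 and 4925 with IL-10 throughout, a 156-fold higher mean (7.48 ± 0.61, adjusted p = 0.00571). The untreated libraries held 0 and 1.24. Il4ra, the alpha chain of the IL-4 and IL-13 receptors (chromosome 7, 125552271 to 125579474), had 7485 and 11877 with LPS and 152757 and 127113 with IL-10 (3.89 ± 0.31, adjusted p = 0.00495). Bcl6 had 1533 and 1147 against 10680 and 9779 (2.94 ± 0.21, adjusted p = 0.00436). In none of these genes did the groups overlap, and all 3 kept their mRNA call with any of the 4 libraries left out.

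A few genes of the IL-10 signal itself rose by mRNA. Stat3 had 6163 and 7980 mRNA reads with LPS and 23882 and 22906 with IL-10 (1.74 ± 0.22, adjusted p = 0.0126), though with 1 of the 4 libraries left out its adjusted p was 0.0618 to 0.0952. Stat3 pre-mRNA did not pass (0.84 ± 0.32, adjusted p = 0.173). The corepressor gene Sbno2 (2.28 ± 0.22, adjusted p = 0.00583) and the ETS-family repressor gene Etv3 (2.34 ± 0.32, adjusted p = 0.018) rose by mRNA. Socs3, the STAT3-induced inhibitor of gp130 receptors, was high in both groups, with 94240 and 87517 reads under LPS and 133730 and 146033 with IL-10 (0.62 ± 0.28, adjusted p = 0.375). Of 30 IL-10 and STAT3 response genes 14 rose by mRNA (median 2.02), against 1.19% of all genes. By pre-mRNA 11 of 27 rose (median 1.48), against 2.44% of all genes tested. Leaving out a library left 5 to 8 of the mRNA rises, lowest without IL-10 library B, and 1 to 11 of the pre-mRNA rises, with 4, 2 and 1 without LPS library A, IL-10 library A and IL-10 library B. The list was drawn up from genes known for this response, so its direction is no independent finding.

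**Figure D3:**
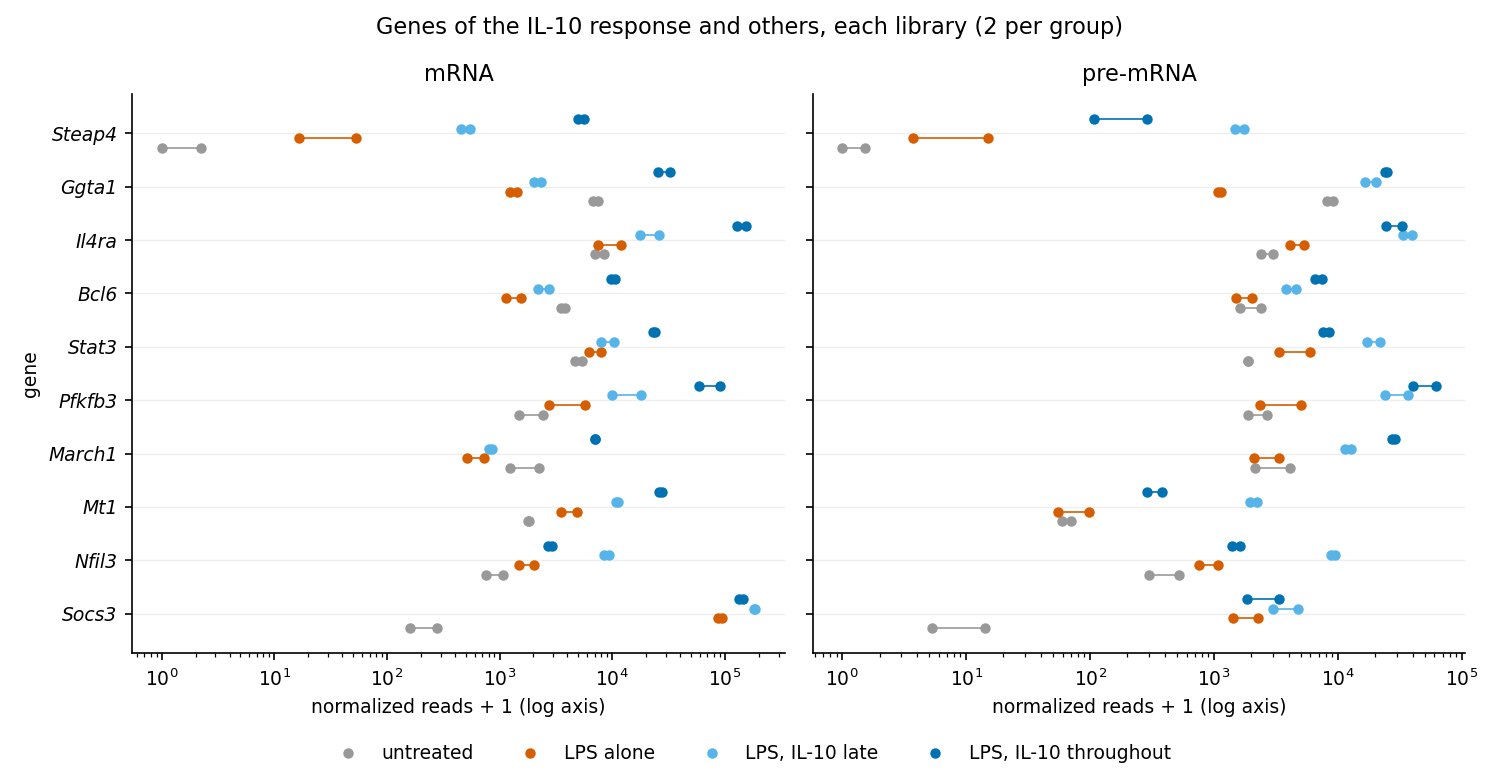
Normalized reads + 1 (log axis) of 10 genes of the IL-10 response and others by mRNA (left) and pre-mRNA (right), with each point a library and colour marking the group. Steap4 with IL-10 throughout lies at 5598 and 4925 by mRNA against 15.5 and 51.8 with LPS, Ggta1 falls with LPS alone and lies above the untreated level with IL-10 throughout, and Socs3 differs little between the LPS-treated groups.

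The gene of the receptor's ligand-binding chain, Il10ra, was not higher. It had 13212 and 18438 mRNA reads with LPS and 9663 and 8374 with IL-10 (-0.79 ± 0.27, adjusted p = 0.227). Among 26 genes of the IL-10 receptor, JAK, STAT and SOCS families, Ptpn1, a phosphatase that acts on JAK2 and TYK2, rose from 7840 and 4830 to 30921 and 38708 reads (2.49 ± 0.29, adjusted p = 0.00931). Socs1, an inhibitor of interferon signalling, fell from 6159 and 7088 to 1506 and 1722 (-2.04 ± 0.34, adjusted p = 0.035). By pre-mRNA Cish, another STAT-induced inhibitor, had 3045 and 2582 reads with LPS and 399.7 and 127.3 with IL-10 (-3.63 ± 0.54, adjusted p = 0.0126). Stat2, Stat4 and Tyk2 were among the other falls, and Jak3 and Ptpn1 rose. The median of the list was -0.18 by mRNA and -0.45 by pre-mRNA, and 0.08 and 0.01 with scaling to total reads. Of 29 cytokine receptor genes 4 rose in both measures: Il4ra, Il6ra, Csf3r and Il21r. Of all genes tested, 1.19% rose by mRNA and 2.44% by pre-mRNA. By pre-mRNA 1 member of the list fell. The Csf3r calls were lost with any of the 4 libraries left out. Il6ra, the IL-6 receptor alpha chain, had 1087 and 1072 mRNA reads with LPS and 3395 and 3986 with IL-10 (1.77 ± 0.18, adjusted p = 0.00639), still below the untreated 5551 and 6534 (-0.71 ± 0.18, adjusted p = 0.0282). Of 22 repressors and corepressors Sbno2, Etv3, Bcl6 and the histone deacetylase gene Hdac9 (3.61 ± 0.58, adjusted p = 0.0298) rose by mRNA, against 1.19% of all genes. The median of that list was -0.14 and turned to 0.12 with scaling to total reads.

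Some metal-handling and acute-phase genes rose. Mt1, a metallothionein that binds zinc, had 3541 and 4844 mRNA reads with LPS and 27805 and 25975 with IL-10 (2.70 ± 0.20, adjusted p = 0.00436). Haptoglobin (Hp), which binds free haemoglobin, had 180.3 and 121.9 with LPS and 2543 and 8033 with IL-10 (4.92 ± 0.68, adjusted p = 0.018). Saa3, an acute-phase apolipoprotein gene, had 15962 and 10040 with LPS and 99617 and 112522 with IL-10 (3.06 ± 0.29, adjusted p = 0.00583). Of 19 iron and metal genes 5 rose by mRNA, with the zinc transporter Slc39a14 and ceruloplasmin (Cp) beside Mt1, Hp and Steap4, and 4 rose by pre-mRNA. Of all genes tested, 1.19% rose by mRNA and 2.44% by pre-mRNA. The medians were 0.42 and 1.00. Without LPS library A, LPS library B, IL-10 library A and IL-10 library B the counts were 2, 2, 3 and 2 by mRNA and 2, 4, 1 and 0 by pre-mRNA. Of 18 complement and acute-phase genes 2 rose by mRNA (Saa3 and Hp) and 2 fell. Those were pentraxin 3 (Ptx3), which fell by 1.66 (SE 0.28, adjusted p = 0.038), and the clotting initiator F3, and both falls were lost with any of the 4 libraries left out. By pre-mRNA 3 of the 18 rose and 1 fell. The medians of -0.03 by mRNA and -0.32 by pre-mRNA turned to 0.24 and 0.13 with scaling to total reads.

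Matrix genes followed no single direction. The metalloproteinase inhibitor Timp1 had 68.0 and 252.1 mRNA reads with LPS and 4312 and 2700 with IL-10 (4.69 ± 0.70, adjusted p = 0.0237), and the protease gene Mmp19 rose by 3.60 ± 0.46 (adjusted p = 0.0131). Plau, the urokinase plasminogen activator, fell from 3049 and 3229 to 717.6 and 902.2 (-1.96 ± 0.33, adjusted p = 0.0376). Timp1 lies within the span of Syn1, whose pre-mRNA also rose (3.96 ± 0.45, adjusted p = 0.00528) while Syn1 mRNA overlapped between groups. The sources used here do not say how reads in that shared stretch were assigned.

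Among glycolysis and HIF-1 genes a regulator rose in both measures. Pfkfb3, which makes the activator of phosphofructokinase, had 2739 and 5679 mRNA reads with LPS and 91447 and 58870 with IL-10 (4.22 ± 0.47, adjusted p = 0.00896), and pre-mRNA rose likewise (3.86 ± 0.46, adjusted p = 0.00657). Ddit4, an inhibitor of mTORC1, rose by 3.53 ± 0.54 by mRNA (adjusted p = 0.0262). Those were the 2 of 27 genes called by mRNA. By pre-mRNA 5 rose, among them the pyruvate kinase gene Pkm, from 5271 and 7042 to 26171 and 24426 reads (2.05 ± 0.30, adjusted p = 0.0119), and the HIF prolyl hydroxylase gene Egln3 (3.24 ± 0.49, adjusted p = 0.0131), while the transporter gene Slc2a6 fell. By mRNA 16 of the 27 had both IL-10 libraries above both LPS libraries, against 20.6% of all genes. The medians were 0.29 and 0.73. The count of 5 was 1, 6, 1 and 1 without LPS library A, LPS library B, IL-10 library A and IL-10 library B.

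Lipid genes showed few called changes by mRNA. Lss, lanosterol synthase of the cholesterol pathway, had 427.6 and 507.1 mRNA reads with LPS and 1101 and 1045 with IL-10 (1.20 ± 0.19, adjusted p = 0.0315) and was the 1 gene called of 25. By pre-mRNA Lss (2.10 ± 0.25, adjusted p = 0.00657), Fdps, Mvk and Hsd17b7 rose, 20 of the 25 had both IL-10 libraries above both LPS libraries, against 24.4% of all genes tested, and the list median was 0.88 (0.15 by mRNA). Those 4 calls became 1, 5, 0 and 0 without LPS library A, LPS library B, IL-10 library A and IL-10 library B, and the mRNA call was lost with any library left out. Ch25h, which makes 25-hydroxycholesterol and is an interferon target with a single exon, fell from 26960 and 40860 to 5134 and 3459 mRNA reads (-2.98 ± 0.53, adjusted p = 0.0446). The desaturase gene Scd2 rose in both measures (1.95 ± 0.26 and 2.97 ± 0.48, adjusted p = 0.0163 and 0.016). The sterol exporter gene Abcg1 fell by pre-mRNA (-1.98 ± 0.30, adjusted p = 0.0144), while its mRNA libraries overlapped.

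The enzymes of nitric oxide and prostanoid synthesis were not lowered as the cytokines were. Nos2, inducible nitric oxide synthase, had 6658 and 13430 mRNA reads with LPS and 33778 and 21756 with IL-10 (1.52 ± 0.48, adjusted p = 0.195). Ptgs2, the inducible cyclooxygenase, overlapped between groups, at 51305 and 68133 with LPS and 103218 and 44854 with IL-10 (0.20 ± 0.44, adjusted p = 0.921), and its sign turned without LPS library A or without IL-10 library A. Pla2g4a, which releases arachidonic acid, rose by 2.53 ± 0.47 (adjusted p = 0.0487), and Gch1, which makes the cofactor of Nos2, fell by 1.37 (SE 0.25, adjusted p = 0.0447). Those 2 were the calls among 19 genes by mRNA.

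Some genes of resting macrophages were higher with IL-10 than with LPS alone. The Fc receptor gene Fcgr3 rose from 2562 and 3600 to 13632 and 10065 (1.95 ± 0.28, adjusted p = 0.0213), and Cd200r1, an inhibitory receptor, by 1.58 ± 0.21 (adjusted p = 0.0163). Ggta1, a galactosyltransferase gene on chromosome 2 (35400179 to 35464381), was the rise with the smallest adjusted p by mRNA. Its reads were 7438 and 6719 untreated, 1224 and 1436 under LPS and 32278 and 25286 with IL-10 (4.43 ± 0.20, adjusted p = 0.00122), above the untreated level by 2.01 ± 0.20 (adjusted p = 8.15e-04). Of 26 macrophage identity genes 4 rose by mRNA (Fcgr2b, Fcgr3 and Cd200r1 among them), against 1.19% of all genes, with a list median of 0.02. That count was 0 to 1 with a library left out, 0 without LPS library B among them. By pre-mRNA Mertk, a receptor for the uptake of dead cells, fell (-3.16 ± 0.68, adjusted p = 0.038), while Fcgr3 and Itgam rose and the median of the 22 genes tested was 0.43. The single fall was lost without LPS library A or either IL-10 library, and the rises were then 2, 1 and 1.

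Several housekeeping and other groups showed no or few called genes. By mRNA limma called 0 of 30 lysosomal, 0 of 30 oxidative phosphorylation, 0 of 30 cytosolic ribosomal protein, 0 of 28 cell cycle and 0 of 15 BCL2-family genes, with medians of -0.16, -0.09, -0.06, -0.01 and -0.36. Unadjusted p-values under 0.05 numbered 1, 1, 0, 5 and 5, against 6.27% of all genes higher and 8.37% lower. Limma-voom called 0 in the first 4 lists and 1 BCL2-family gene. All medians but the last turned positive with scaling to total reads, at 0.10, 0.18, 0.20 and 0.25. The lysosomal list did hold calls by pre-mRNA. Of its 30 genes 3 rose, Ctsa and Laptm5 among them, and 1 fell, Lipa, with a list median of 0.26. Among all genes tested by pre-mRNA 2.44% rose and 4.26% fell. Limma called 0 oxidative phosphorylation and 0 ribosomal protein genes by pre-mRNA. By pre-mRNA the cyclin gene Ccnd2 fell from 4746 and 1424 to 163.7 and 60.4 reads (-4.69 ± 0.87, adjusted p = 0.0239), as did the cell cycle inhibitor gene Cdkn1a (-2.42 ± 0.42, adjusted p = 0.019) and Tyms, while the kinase gene Cdk2 rose (1.97 ± 0.44, adjusted p = 0.0428) and the median of the 28 cell cycle genes was 0.34. The 3 falls and the rise were lost without LPS library A or either IL-10 library. The survival genes Bcl2a1d (-3.67 ± 0.70, adjusted p = 0.0269) and Bcl2a1a fell by pre-mRNA too, but these are near-identical copies whose reads are uncertain. The integrin gene Itgax (CD11c) fell by pre-mRNA from 17826 and 13124 to 2730 and 2697 (-2.49 ± 0.30, adjusted p = 0.00657).

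**Figure D4:**
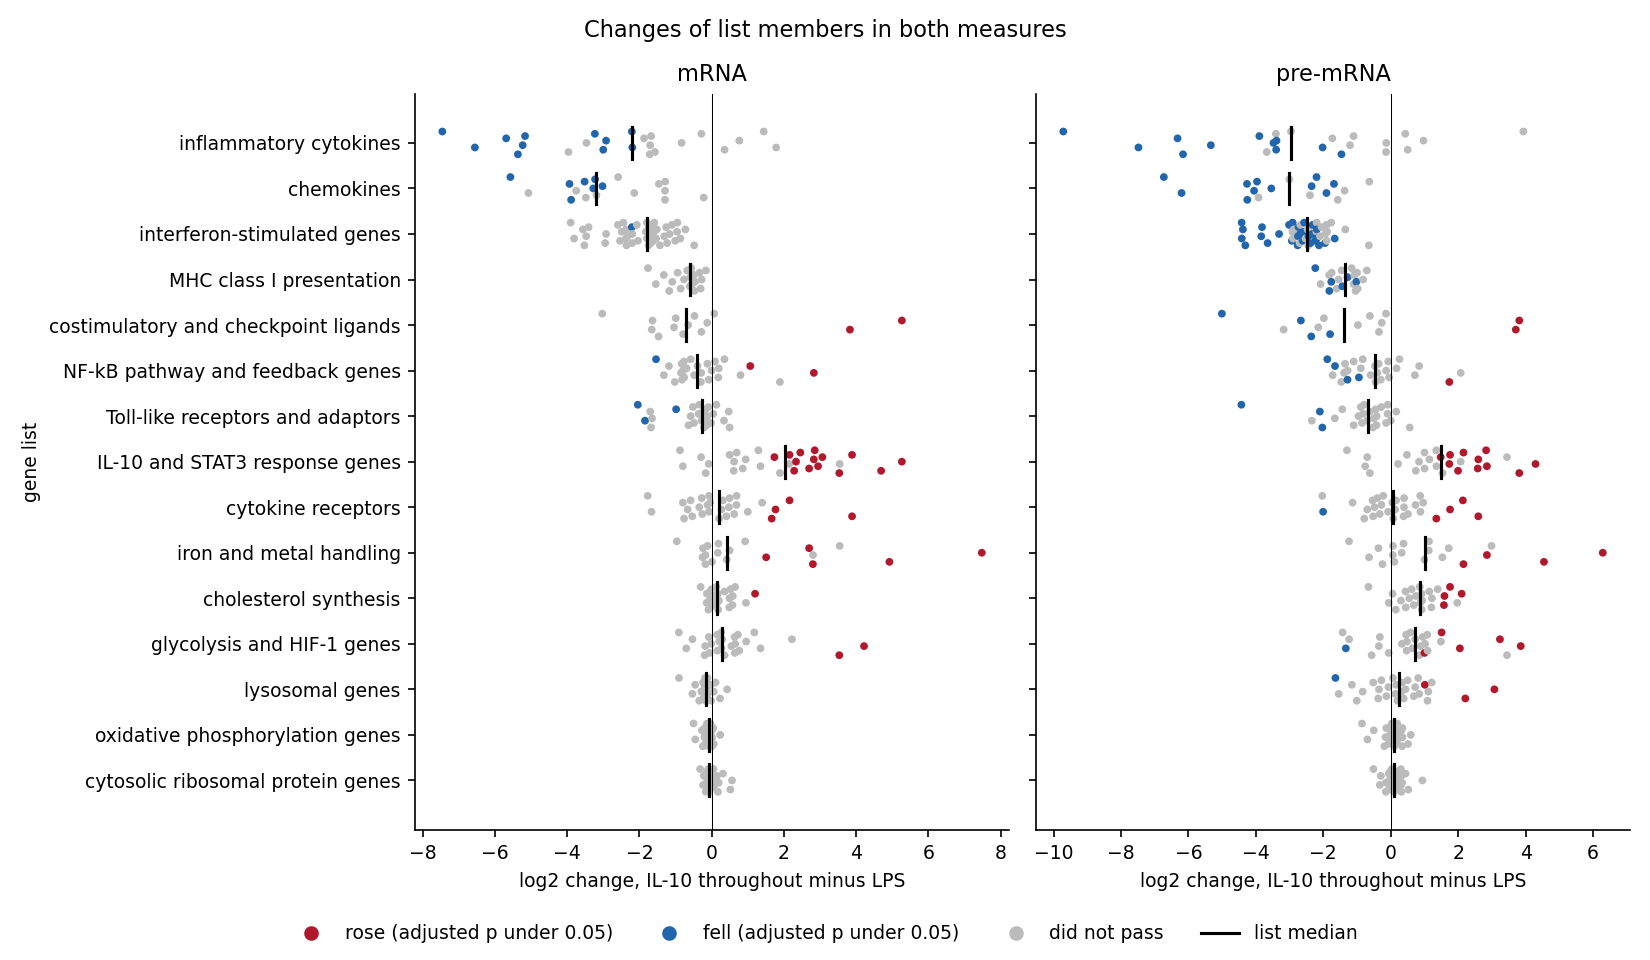
Log2 change (IL-10 throughout minus LPS) of every tested member of 15 gene lists, by mRNA (left) and pre-mRNA (right). Points are genes, red where the gene rose, blue where it fell and grey where it did not pass an adjusted p under 0.05, and the black bar is the list median. The medians of cytokines (-2.20 and -2.96), chemokines (-3.21 and -3.01) and interferon-stimulated genes (-1.78 and -2.50) lie left of 0, and that of IL-10 and STAT3 response genes (2.02 and 1.48) right of it.

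Whether pre-mRNA and mRNA of a gene changed by different amounts was tested in 1 fit of both measures. In 6 of 11131 genes (0.0539%) the pre-mRNA change was higher than the mRNA change, and in 1 (0.00898%) it was lower. At an unadjusted p under 0.05, 421 genes (3.78%) differed in either direction. The fit treats the measures as independent although both come from the same RNA.

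The 6 genes had a pre-mRNA that rose beside an mRNA that was not called. Gm2a, the lysosomal activator of ganglioside breakdown (chromosome 11, 55097985 to 55113029), had 23.5 and 27.0 pre-mRNA reads with LPS and 320.8 and 215.7 with IL-10, while its mRNA stood at 9607 and 12321 with LPS and 11983 and 9293 with IL-10. The pre-mRNA groups were apart and the mRNA groups overlapped, and the changes differed by 3.38 ± 0.37 (adjusted p = 0.00799). Itgam, which encodes the integrin CD11b (chromosome 7, 128062640 to 128118491), had 676.8 and 569.5 pre-mRNA reads with LPS and 3056 and 4657 with IL-10, and 10075 and 10648 against 8035 and 9572 mRNA reads (difference 2.84 ± 0.32, adjusted p = 0.00799). The phospholipid transfer protein gene Pltp (3.03 ± 0.36, adjusted p = 0.0086), Acat3 (2.40 ± 0.28, adjusted p = 0.00837), the collagenase gene Mmp8 (3.46 ± 0.52, adjusted p = 0.0453) and the lysosomal membrane gene Laptm5 (2.37 ± 0.36, adjusted p = 0.0453) were the others. Pltp overlaps Ctsa by 1515 bases and Acat3 overlaps Tcp1 by 1238 bases, and the pre-mRNA of both neighbours rose too (3.08 ± 0.44 and 1.54). Acat3 also has a near-identical copy, Acat2, so part of these reads is uncertain.

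Prr5l, which encodes a partner of the mTORC2 complex, was the gene with the lower pre-mRNA change. Its pre-mRNA had 7812 and 6072 reads with LPS and 975.0 and 751.8 with IL-10, its mRNA 1951 and 1855 against 870.4 and 995.7, and the changes differed by -1.98 ± 0.29 (adjusted p = 0.0453). None of the 7 calls was kept in every fit with a library left out. The 6 became 3 without LPS library A, 0 without LPS library B, 1 without IL-10 library A and 0 without IL-10 library B of the mRNA measure, and 2 without IL-10 library A of the pre-mRNA measure. The Prr5l call was lost without LPS library A, IL-10 library A or IL-10 library B of either measure and without LPS library B of the mRNA measure. Il12b, whose pre-mRNA changed by -9.71 and mRNA by -7.45, did not pass this test (-2.26 ± 1.01, adjusted p = 1.0).

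**Figure D5:**
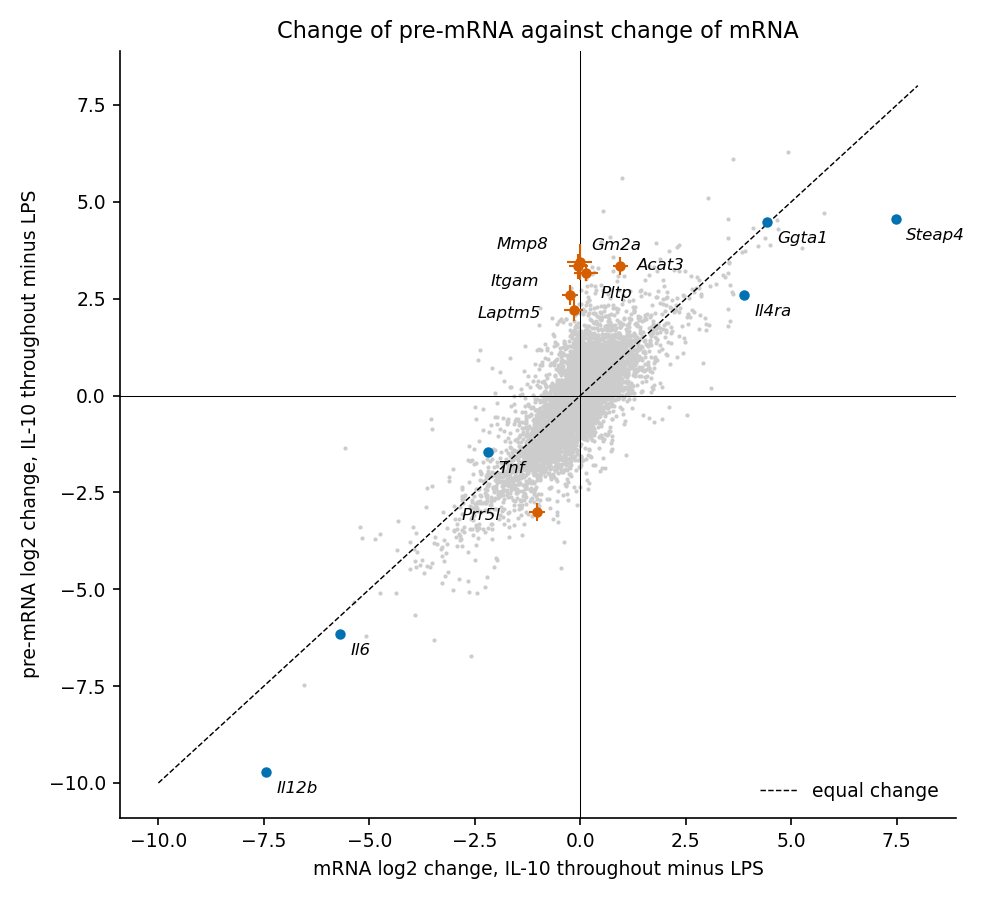
Pre-mRNA log2 change against mRNA log2 change (IL-10 throughout minus LPS) of the 11131 genes tested in both measures. Grey points are genes, orange points with SE bars are the 7 genes whose changes differed, blue points are 6 genes of reference and the dashed line marks equal change. Gm2a, Itgam, Pltp, Mmp8 and Laptm5 lie near 0 on the mRNA axis and between 2.21 and 3.45 on the pre-mRNA axis.

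The schedule of IL-10 was compared directly, IL-10 throughout minus late IL-10. IL-10 throughout gave higher mRNA in 59 genes (0.517%) and lower mRNA in 65 (0.569%). For pre-mRNA the counts were 84 higher (0.755%) and 245 lower (2.2%). Il12b mRNA with late IL-10 was 60456 and 21537, a difference of -7.18 ± 0.56 (adjusted p = 0.00836), and its pre-mRNA (2072 and 1188 with late IL-10) differed by -6.78 ± 0.72 (adjusted p = 0.0144). Ggta1 mRNA was higher with IL-10 throughout by 3.72 ± 0.20 (adjusted p = 0.00407), while its pre-mRNA, at 20278 and 16464 with late IL-10 and 25048 and 24168 with IL-10 throughout, gave a difference of 0.43 ± 0.26 (adjusted p = 0.389). Il4ra showed the same combination, with an mRNA difference of 2.70 ± 0.31 (adjusted p = 0.0192) and a pre-mRNA difference of -0.38 ± 0.32 (adjusted p = 0.55).

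For a few response genes pre-mRNA was lower with the longer exposure. With late IL-10 Mt1 pre-mRNA was 1951 and 2211, against 376.1 and 284.8 with IL-10 throughout (-2.66 ± 0.33, adjusted p = 0.0208), whereas Mt1 mRNA was higher with IL-10 throughout (1.28 ± 0.20, adjusted p = 0.0404). Nfil3, a repressor of Il12b transcription, was lower with IL-10 throughout in both measures (mRNA -1.65 ± 0.24, adjusted p = 0.035, and pre-mRNA -2.59 ± 0.31, adjusted p = 0.0206). It did not pass against LPS alone (0.69 ± 0.24, adjusted p = 0.242). The mRNA counts fell to 27 and 28 without LPS library A, 27 and 27 without LPS library B, 3 and 5 without IL-10 throughout library A, 1 and 1 without its library B, 1 and 0 without late IL-10 library A and 1 and 1 without its library B (higher and lower). The pre-mRNA counts were 130 and 424 without LPS library A, 137 and 462 without LPS library B, 0 and 1 without either IL-10 throughout library, 0 and 1 without late IL-10 library A and 11 and 22 without late IL-10 library B.

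The macrophage markers Csf1r and Lyz2 had many mRNA reads in all 4 libraries of the comparison. Of the other defining markers, Itgam rose and Mertk fell by pre-mRNA, as given above. The growth factor receptor Csf1r had 105256 and 86524 mRNA reads with LPS and 83293 and 93559 with IL-10, and the lysozyme gene Lyz2 had 373309 and 355519 against 291770 and 280022, neither of them called (adjusted p = 0.928 and 0.696). Of markers of other cells, the table held 7 of 12 neutrophil genes, with summed mRNA reads of 2488 and 3000 with LPS and 2707 and 2138 with IL-10, and 5 of 10 dendritic cell genes. The summed reads of the dendritic cell genes, most of them from Itgax, were 9528 and 17955 with LPS and 4661 and 3057 with IL-10. It held 3 of 14 T and NK cell genes (449.2 and 762.0 against 796.2 and 409.1), 2 of 8 mast cell genes (181.3 and 103.7 against 28.6 and 56.3), 2 of 11 megakaryocyte and erythroid genes (1766 and 1716 against 791.7 and 446.3), 6 of 13 stromal and endothelial genes (3923 and 4824 against 1711 and 1596) and 0 of 7 B cell genes. By mRNA limma called 1 of these, Pdgfrb, which fell from 2604 and 2395 to 671.1 and 580.2 (adjusted p = 0.0333), and by pre-mRNA Mmp8 rose and Itgax, Pdgfrb and Kdr fell. The part of other cells in the results was not tested, and in bulk RNA fewer cells of a type and less RNA per cell cannot be told apart. Of the 19 genes listed for RNA quality 4 were in the table, and 2 of them, the heat-shock genes Hspa1b (from 2860 and 2023 to 252.0 and 167.9, adjusted p = 0.00639) and Hspa1a (from 921.2 and 572.9 to 109.0 and 114.8, adjusted p = 0.0454), fell. These are near-identical copies with a single exon, so the split between them is uncertain.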

How the data were processed

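RNA of 8 libraries (4 groups of 2) was measured by directional, ribosome-depleted sequencing, per the labels' protocols. The authors deposited 1 table of 11415 genes with 8 columns of signal values, a mature mRNA and a pre-mRNA value per group. Per the submitters' processing notes, the authors used Trim Galore, DESeq and the mm10 build. For the aligner, counter, annotation and assignment of pre-mRNA reads, the sources used here give nothing. Every deposited signal value was the mean of 2 libraries' whole read counts, each divided by its size factor. Both libraries' reads were recovered for 100% of values with a relative error under 1e-14 and no second solution, and recomputed median-of-ratios size factors matched. This is a step beyond the deposited means, and all p-values rest on it and reflect only how far these libraries lie apart, which can be technical. Normalized reads were tested as log2(value + 1), which understates the change of low genes, with limma-trend 3.58.1 in R 4.3.3, two-sided, on all 8 libraries of a measure. The model held group alone, and genes needed a mean of 1 or more. The joint fit of both measures used 16 columns. Both fits and the recovery were tested on simulated data.

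The named genes were, per measure, the 10 largest rises and falls past the threshold without overlap and with a higher-group mean of at least 20 (predicted genes skipped), up to 3 members of each of 29 lists with the smallest adjusted p (or the member nearest the median), up to 5 differences between the measures each way, and 15 fixed genes. Further list members are named only to complete a count, and the macrophage markers come from the marker lists. The comparison, the gene lists and the tests were chosen with earlier results of these data known. A few results are not reported here. Counting intervals (95%) and floors cover counting error only. Promoters come from RefSeq tables of GRCm38.p6, whose gene table matched 11378 of the 11415 names. Alternatives were other pseudocounts, filters, scalings, limma-voom, the 4 compared libraries alone, and each library left out in turn.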

Additional observations from a re-analysis of the deposited data

How the results depend on the processing

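No paired analysis was possible because the columns carry no replicate number. With the 4 compared libraries alone, rises and falls numbered 47 and 36 by mRNA and 110 and 179 by pre-mRNA. With 1 library left out, a lone library being assumed to vary like the other groups, mRNA rises numbered 27 to 56 and falls 16 to 29, and pre-mRNA rises 30 to 399 and falls 32 to 753. With no filter on low values, pre-mRNA rises and falls numbered 132 and 175. Against late IL-10, scaling to total reads gave 89 genes higher by mRNA and 144 by pre-mRNA, and no filter gave 7 higher and 19 lower by pre-mRNA. With 1 library left out (LPS, IL-10 throughout or late IL-10, chosen after seeing the data), those counts ran from 1 to 27 higher and 0 to 28 lower by mRNA and from 0 to 137 higher and 1 to 462 lower by pre-mRNA. The count of 6 genes with a higher pre-mRNA change was 3 with limma-voom, 0 with the 4 libraries alone and 0 to 7 with a library left out. The count of 1 with a lower pre-mRNA change was 2 without a filter, 0 with limma-voom, with either other scaling and with the 4 libraries alone, and 0 to 1 with a library left out. The Ptgs2 change, positive with all libraries, ran from -0.40 to 0.80 by mRNA and from -0.12 to 1.12 by pre-mRNA with a library left out. The cause of these shifts was not tested, except that fewer samples enter when libraries are left out. All 136 and 120 mRNA calls and all 272 and 474 pre-mRNA calls kept their direction in every setting, and 20, 11, 28 and 25 of them were called in every setting. Depth limits genes with few reads, whose intervals cover counting error only.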

Other observations

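Some called genes lay next to each other, and no share by chance was computed for comparison. Taking genes in the order of the table's RefSeq positions, with gaps under 50 kb, 57 of 271 genes that rose by pre-mRNA and had a position (21.0%) stood in 23 runs of neighbours that all rose, and 93 of 474 that fell (19.6%) in 42 runs. By mRNA 18 of 136 rises (13.2%) and 6 of 120 falls (5.0%) did. Some of these runs hold gene models that share a span, so their members need not be separate genes changing together. Among the pre-mRNA falls Akap2 and Pakap have the same coordinates, Schip1 lies within Gm21949 and Fam196b within Dock2. On chromosome 2 Neurl2, Ctsa and Pltp, whose gene models overlap, rose by 5.11, 3.08 and 3.17 on the log2 scale by pre-mRNA. By mRNA Neurl2 rose by 3.02 ± 0.31 (adjusted p = 0.00676), while Ctsa (0.11) and Pltp (0.14) did not pass. On chromosome 17 Mrpl18, Tcp1, Acat3 and Acat2 rose by 1.85, 1.54, 3.34 and 2.59 by pre-mRNA, and on chromosome X Syn1, Timp1 and Cfp, the gene of the complement factor properdin, rose by 3.96, 4.30 and 2.31. On chromosome 19 the run of falls held Lipa, a lysosomal lipase gene that is no interferon-stimulated gene on the lists used here, beside Ifit2, Ifit3, Ifit1bl1 and Ifit3b. Lipa pre-mRNA had 3269 and 3158 reads with LPS and 929.2 and 1144 with IL-10 throughout, and its mRNA did not pass (-0.34 ± 0.25, adjusted p = 0.624). Tyms, named above with the cell cycle genes, stood in a run of pre-mRNA falls with Il6 on chromosome 5, at -2.005 and -6.16. Whether reads that run past the end of a gene take part in these runs was not tested.

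Genes outside the lists were among the calls kept with each library left out. The small GTPase gene Rnd1 had 598.7 and 766.2 mRNA reads with LPS and 14723 and 9160 with IL-10 throughout, and 43.5 and 118.8 against 1677 and 1260 pre-mRNA reads. Gpr35, a G protein-coupled receptor gene of gut and immune cells, had 19.6 and 21.0 mRNA reads with LPS and 1176 and 1142 with IL-10, and lay above the untreated 150.8 and 494.0. Rab3il1, a Rab exchange factor gene, had 3649 and 2312 reads untreated, 171.0 and 92.4 with LPS and 2403 and 3442 with IL-10 throughout, a rise of 4.50 ± 0.39 against LPS (adjusted p = 0.00571) and a difference from untreated cells of -0.01 ± 0.39 (adjusted p = 0.983). Mex3a, an RNA-binding protein gene, went from 543.0 and 379.6 with LPS to 10.7 and 23.4 with IL-10 (-4.75 ± 0.48, adjusted p = 0.00639). Among the genes that fell, Rasgef1b, a guanine exchange factor gene named after its values were seen, had 42248 and 47855 mRNA reads with LPS and 2587 and 3711 with IL-10, next to 2952 and 3148 untreated.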
